A study of Mus musculus with 18 samples.

Results

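The sarcomere is the contractile unit of the cardiomyocyte, and its core ventricular genes are described here as a family of 10 genes taken by name. They are Myh6, Myh7, Myl2, Myl3 and Mybpc3 of the thick filament, Actc1, Tnnt2, Tnni3 and Tpm1 of the thin filament, and the giant gene Ttn. Each was measured as the sum of the estimated counts of its transcripts, and these 10 were among 34989 genes with transcripts in the files. The study asked how cold storage and reperfusion change RNA in the left ventricle (LV) and the right ventricle (RV) of donor hearts from mice. All groups came from mice labelled C57B/L6 with a labelled age of 12 weeks, from which the age in the paper's methods differs. Each heart received HTK, a cardioplegic preservation solution. By the paper's methods, hearts of 4 and 8 h were then kept in cold HTK, and those of 0 h went directly to perfusion. Storage lasted 0, 4 or 8 h, all hearts were then perfused ex vivo with Krebs buffer, and each ventricle was frozen. Total RNA was extracted, from which mRNA was selected for sequencing according to the paper's methods, a step that the labels do not mention. The groups were LV after 0 h, LV after 4 h, LV after 8 h, RV after 0 h, RV after 4 h and RV after 8 h, with 3 libraries in each and 18 in all. The hearts stored for 0 h were thus infused and perfused like the others, and no unperfused heart was among the samples.

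Muscle shortens when myosin heads of the thick filament pull on actin of the thin filament, using ATP. Calcium binding to the troponin complex moves tropomyosin and lets the heads bind, while titin spans from the Z-disc to the M-band and gives the muscle its passive tension. The adult mouse ventricle makes mostly the fast alpha myosin heavy chain from Myh6, and the slower beta chain from the neighbouring gene Myh7 is known to rise in fetal and stressed hearts.

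Levels are given below in CPM, the estimated counts divided by the total of the library times its TMM factor, on a common scale. TMM factors, estimated by edgeR, were 1.027 to 1.107 at 0 h and 0.909 to 1.02 at 8 h over both ventricles. The total of estimated counts ranged from 22552600.0 to 46236800.0 per library. Genes of the mitochondrial genome took 24.1, 25.97 and 28.3% of those counts in LV at 0 h and 31.98, 34.4 and 33.4% at 8 h. In RV they took 22.7, 26.5 and 32.6% at 0 h and 34.2, 33.6 and 33.3% at 8 h. In both ventricles the 8 h libraries lay above the 0 h libraries with no overlap, although RV 0 h library 3 came close to them. The labels number the libraries of a group 1 to 3, without saying whether equal numbers mean the same heart. P-values therefore measure the spread between libraries, and whether these came from separate animals is not stated. Library 3 of LV at 8 h and library 3 of RV at 8 h stood apart before any test. Transcripts annotated as retaining an intron took 3.71% of the counts outside the mitochondrial genome in LV 8 h library 3 and 4.35% in RV 8 h library 3, and the median over all libraries was 2.73%. In RV 0 h library 3 this share was 3.42%. Transcripts annotated without an mRNA start took a mean of 1.65% of the same counts in LV at 0 h and 1.898% at 8 h, and 1.74% and 1.84% in RV, with the highest values in RV 8 h library 3 (2.22%), LV 8 h library 3 (2.097%) and RV 0 h library 3 (2.07%). Those annotated without an mRNA end took a mean of 0.964% in LV at 0 h and 0.858% at 8 h, and in RV 1.01% and 1.02%. The part of these shares in the members' results was not tested.

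Together the 10 genes took this percentage of all estimated counts in the LV libraries: 8.48, 7.58 and 7.25 at 0 h, 7.31, 6.82 and 7.17 at 4 h and 5.94, 5.88 and 4.77 at 8 h. The RV percentages were 8.63, 7.62 and 7.06 at 0 h, 7.08, 6.802 and 6.88 at 4 h and 5.27, 5.93 and 3.301 at 8 h. The share was lower in each 8 h library than in any 0 h or 4 h library of its ventricle, and RV 8 h library 3 was the lowest of the 18. By TPM, a level per transcript length that the authors deposited on a common scale, the members took 6.104 ± 0.676% (mean ± SD, n = 3) in LV at 0 h and 4.898 ± 0.1896% at 8 h. In RV the TPM share was 6.08 ± 0.785% at 0 h and 4.14 ± 0.401% at 8 h. The mitochondrial share moved the other way over the same libraries. Outside the mitochondrial genome the TPM share of the members was 10.7 ± 0.7802% in LV at 0 h and 9.56 ± 0.436% at 8 h, and the LV 8 h libraries overlapped those of 4 h. In RV it was 10.7 ± 0.667% at 0 h and 8.17 ± 1.17% at 8 h, with no overlap between 8 h and the other times. In bulk ventricle, fewer cardiomyocytes and less sarcomere RNA per cardiomyocyte cannot be told apart.

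Compared per length, the members spanned a wide range of levels. By mean TPM over the 18 libraries, the most abundant were Myl2 at 10992 TPM, encoding the regulatory light chain of ventricular myosin, and Myh6 at 10786 TPM. Tnnt2, the troponin that anchors the complex to tropomyosin, followed at 8549.8 TPM. Tpm1, Actc1, Myl3 and Tnni3 lay between 5063 and 6315 TPM. Mybpc3 stood at 761 TPM and Ttn at 67.6 TPM. Myh7 was the lowest of the 10 at 21.4 TPM. The ranges of Myl2 (7401 to 14084 TPM) and Myh6 (8032 to 13821 TPM) overlapped, so their order was not fixed beyond the spread between libraries. A mean of 46.6% of Myh6 TPM was given to the short transcript Myh6-207, and the place of Myh6 in this order rests in part on it.

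**Figure D1:**
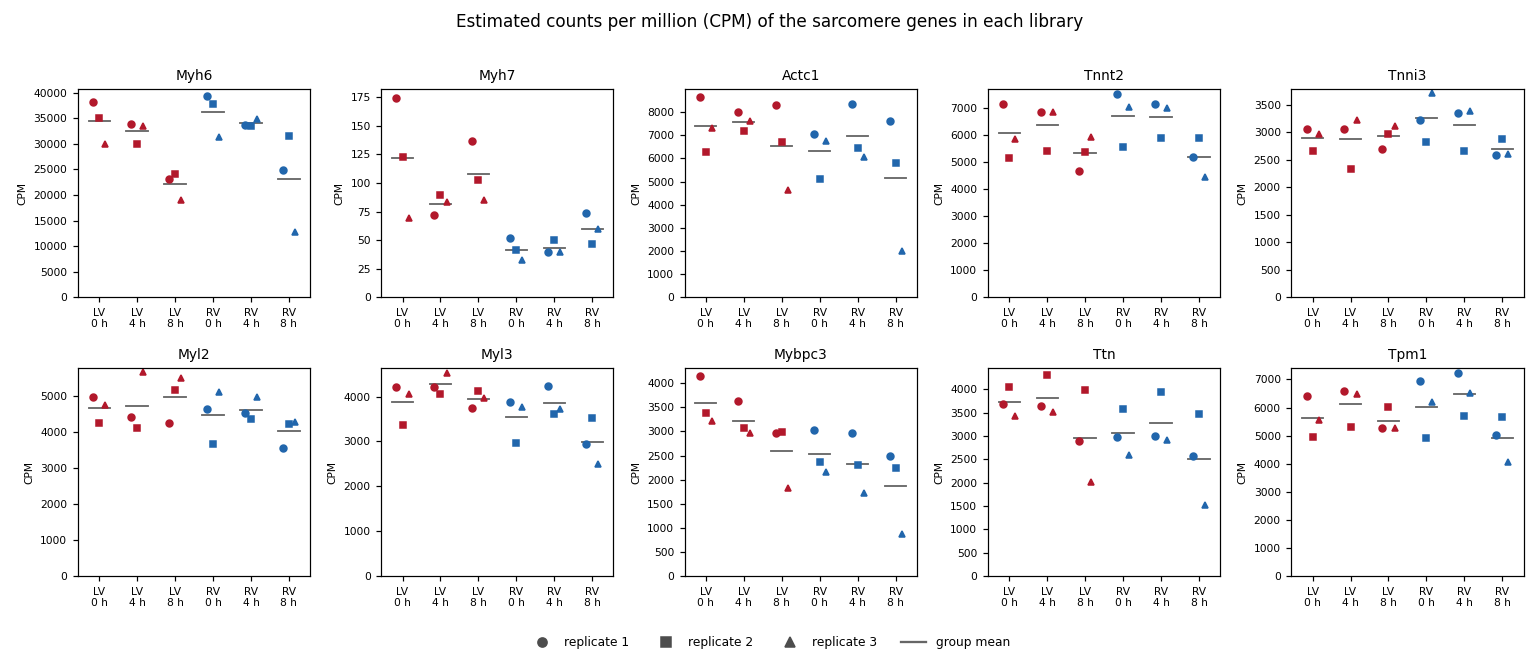
Each panel plots 1 of the 10 genes, with CPM on a linear axis from 0 and the 6 groups along the other axis. Points are libraries, shaped by replicate number and red for LV or blue for RV, and horizontal lines are group means. In LV the Myh6 points of 8 h lie below those of 0 h and 4 h. At each storage time the Myh7 points of LV lie above those of RV. RV 8 h library 3 is the lowest point for Myh6, Actc1, Tnnt2, Myl3, Mybpc3, Ttn and Tpm1.

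After 8 h of storage Myh6 was lower in LV by counts, and in RV the libraries disagreed. Myh6 encodes the alpha myosin heavy chain, the main motor of the adult mouse ventricle, and lies on chromosome 14 (14:54941921-54966927, minus strand, GRCm38). In LV it counted 38214, 34986 and 29966 CPM at 0 h, 33826, 29960.5 and 33577 CPM at 4 h and 23196, 24078 and 19030.1 CPM at 8 h. In RV it counted 39314, 37858 and 31389 CPM at 0 h, 33692, 33452 and 34879 CPM at 4 h and 24932, 31539.7 and 12721 CPM at 8 h. All LV 8 h libraries lay below all LV libraries of 0 h and 4 h, whereas RV 8 h library 2 overlapped the RV 0 h range and RV 8 h library 3 was far below the rest. At 8 h against 0 h in LV, Myh6 fell by 0.63 on the log2 scale (SE 0.135, 95% confidence interval -0.94 to -0.33, edgeR adjusted p = 0.04095), and it was lower in 3 of 3 libraries. To be called, a gene here needed a fold change above 1.5 together with an adjusted p below 0.1. Myh6 was the 1 member of 10 called in this comparison, in which 6.72% of all tested genes were called. Over the fits without 1 library, the count of genes called there ranged from 142 to 1928, as against 978 with all libraries. The same contrast in RV gave a log2 fold change of -0.65 (SE 0.304, edgeR adjusted p = 0.181), which did not pass the test. The difference between the ventricles in this change was 0.012 on the log2 scale (SE 0.341) and did not pass the test either.

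The LV call for Myh6 depended on single libraries and held in 6 of the 9 fits that left 1 out. Without LV 0 h library 1 its adjusted p by edgeR was 0.0999 with a log2 fold change of -0.55, short of the fold threshold. Without LV 0 h library 2 the adjusted p by edgeR was 0.173 at -0.62, and without LV 8 h library 3 it was 0.106 at -0.55. Leaving out RV 8 h library 2 gave Myh6 a log2 fold change of -0.94 in RV and an edgeR adjusted p of 0.05198, which passed the test. Over the 9 fits that left out 1 RV library, the value ranged from -0.94 to -0.35, with an edgeR adjusted p up to 0.336. Over the 13 alternative settings of the RV contrast the adjusted p ranged from 0.06800 to 0.956.

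In LV the fall of Myh6 was seen in counts and not in TPM. Its TPM there were 12241, 10713 and 11210.4 at 0 h, 11515, 8913 and 11546 at 4 h and 11798, 8032 and 10949 at 8 h. Those in RV were 13821, 11519.8 and 12226 at 0 h, 11335, 8928 and 11349 at 4 h and 9303, 8761 and 9977 at 8 h. The LV groups overlapped in TPM, and LV 8 h library 1 was higher than 2 of the 0 h libraries, whereas the RV 8 h libraries all lay below the RV 0 h libraries. These scales differ in the transcript length that the quantification assigned to the gene. They differ also in scaling, since CPM used TMM factors and TPM was scaled within each library with mitochondrial genes included. The edgeR fit with length offsets used TMM too, so its result need not match the TPM. The average effective length of Myh6, weighted by the TPM of its transcripts, was 3721, 4217 and 3151 bases at 0 h, 3239, 4056 and 3176 bases at 4 h and 2088, 3011 and 1613 bases at 8 h in LV. The RV lengths were 3747, 4295 and 2695 bases at 0 h, 3169, 4297 and 3283 bases at 4 h and 2596, 3532 and 1144 bases at 8 h. The 8 h libraries of LV were the shortest of their ventricle, and RV 8 h library 3 was the shortest of all 18. With these lengths as offsets in edgeR, the LV log2 fold change of Myh6 was 0.16 (adjusted p = 0.6495), and over the 13 alternative settings of this contrast the adjusted p ranged from 0.0004002 to 0.707. In RV, where counts gave -0.65, the same offsets gave Myh6 -0.052 in edgeR (adjusted p = 0.884) and -0.020 in DESeq2 (adjusted p = 0.956), and over the 13 alternative settings the range was 0.06800 to 0.956.

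The shift in length went with 1 short transcript. Myh6-207 is annotated as a protein-coding transcript of 542 bases at the 3′ end of the gene (14:54941928-54944511), and it lacks the annotation's tag for basic transcripts. Its percentages of Myh6 TPM in LV were 35.4, 27.3 and 45.5 at 0 h, 46.2, 30.6 and 46.95 at 4 h and 67.1, 50.5 and 74.1 at 8 h. For RV the percentages were 36.8, 25.8 and 53.5 at 0 h, 47.9, 26.4 and 44.4 at 4 h and 58.5, 40.6 and 81.1 at 8 h. All LV 8 h libraries lay above the other LV libraries, and in RV libraries 1 and 3 did, with library 2 inside the range of 0 h. The full-length Myh6-201, of 6113 bases, took 4.96 to 51.1% of Myh6 TPM over the 18 libraries and was lowest in RV 8 h library 3. Replicate 2 of every group held more of Myh6-201 than replicates 1 and 3 of that group did. When the members were counted from basic transcripts alone, an alternative chosen after seeing the data, the LV log2 fold change of Myh6 was -0.75 (edgeR adjusted p = 0.0389). Whether the counts or the lengths follow the RNA of the ventricle was not tested.

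**Figure D2:**
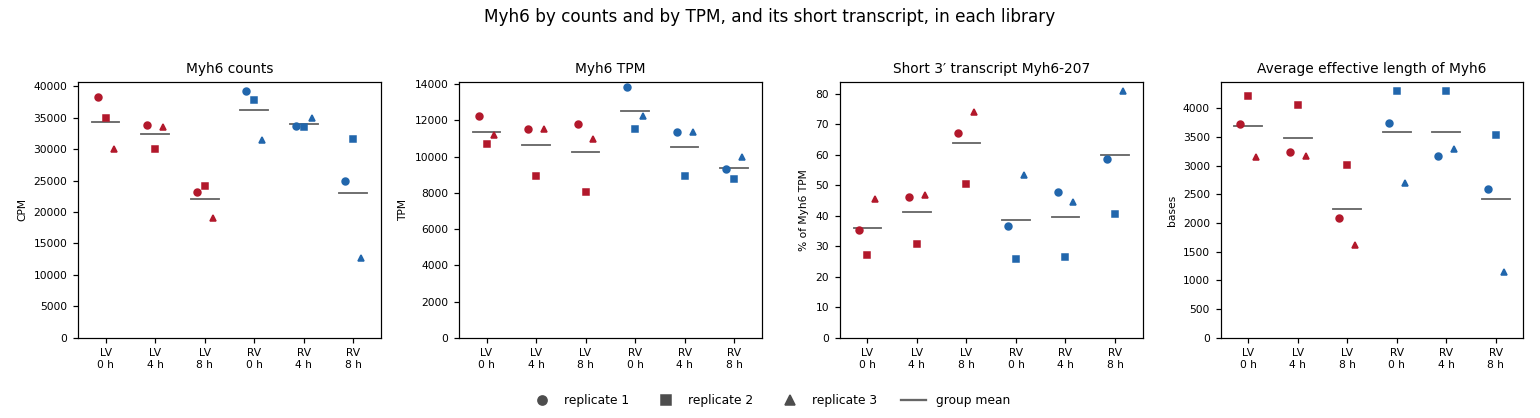
Myh6 in each library by CPM, by TPM, by the percent of its TPM given to the transcript Myh6-207, and by its average effective length in bases. Points are libraries (LV red, RV blue), lines are group means and all axes start at 0. Counts and effective length were low at 8 h in LV and in RV libraries 1 and 3, where the share of Myh6-207 was high, and TPM differed less.

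Some other members also held more of short transcripts at 8 h, most of all in library 3. Basic transcripts took 79.6, 87.4 and 74.8% of the members' summed TPM in LV at 8 h and 81.8, 86.7 and 63.9% in RV at 8 h, and the median over all libraries was 86.7%. For Tnni3, the inhibitory troponin, the retained-intron transcript Tnni3-202 took 3.62 to 49.7% of TPM, with the highest value in RV 8 h library 3. For Ttn, the longest transcript with a share over 5%, Ttn-201 of 81843 bases, took 20.2 to 67.8% of TPM, with the lowest value in RV 8 h library 3. A retained-intron transcript of Myh7, of 595 bases, took 11.8 to 61.6% of Myh7 TPM, again highest in RV 8 h library 3. Actc1, Mybpc3, Tpm1 and Myl3 were each given almost wholly to 1 transcript, and the lowest share of that transcript among them was 94.6%, for Myl3-201.

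Myh7 was higher in LV than in RV at every storage time by counts. Myh7 encodes the beta myosin heavy chain, the slower motor, and lies beside Myh6 (14:54970684-54994626, minus strand). Its LV level was 175, 123 and 69.1 CPM at 0 h, 72.1, 89.2 and 83.7 CPM at 4 h and 137, 103 and 84.96 CPM at 8 h. Its RV level was 51.5, 40.9 and 32.6 CPM at 0 h, 39.2, 49.9 and 39.3 CPM at 4 h and 73.9, 46.6 and 59.4 CPM at 8 h. At each storage time all LV libraries lay above all RV libraries, with the narrowest gap at 8 h between LV library 3 and RV library 1. LV at 0 h was the most spread of the groups, and LV 0 h library 1 was the highest of all 18 libraries. At 0 h Myh7 was higher in LV than in RV by a log2 fold change of 1.55 (SE 0.289, 95% confidence interval 0.94 to 2.17, edgeR adjusted p = 0.0658), and it was higher in 3 of 3 libraries of the same number. It was the 1 member of 10 called between the ventricles at 0 h, where 0.159% of all tested genes were called. The call was lost with length offsets in edgeR (1.44, adjusted p = 0.151) and in a fit of the 6 libraries of that time (1.56, edgeR adjusted p = 0.2600), and kept by DESeq2 with and without those offsets. It was also lost without LV 0 h library 1 (1.202, edgeR adjusted p = 0.361), LV 0 h library 2 (1.56, 0.218), RV 0 h library 1 (1.75, 0.149), RV 0 h library 2 (1.54, 0.297) or RV 0 h library 3 (1.41, 0.342).

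Libraries of the same number in LV and RV resembled each other within each storage time, so a fit that pairs LV and RV libraries of 1 number, called the replicate block below, was placed beside these comparisons. The labels do not say that such a pair is 1 heart. With the block, the LV against RV log2 fold change of Myh7 at 0 h was 1.48 (edgeR adjusted p = 0.000254), beside 1.85% of all tested genes called. Over the 20 alternative settings of this contrast the adjusted p ranged from 2.16e-05 to 0.2600.

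At 4 h the LV against RV log2 fold change of Myh7 was 0.93 (SE 0.285) and did not pass the test. By edgeR 0 of 10 members were called at 4 h between the ventricles, as against 0.0133% of tested genes, 1 member had an unadjusted p under 0.05, and DESeq2 called 0. The replicate block gave Myh7 0.93 (edgeR adjusted p = 0.008200) and called it as 1 of 10 members, beside 1.93% of tested genes. Over the 20 alternative settings at 4 h the adjusted p of Myh7 ranged from 0.000861 to 1.000.

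At 8 h the LV against RV log2 fold change of Myh7 was 0.85 (SE 0.284, edgeR adjusted p = 0.303). By edgeR 0 of 10 members were called at 8 h between the ventricles, where 0.0331% of tested genes were, 2 members had an unadjusted p under 0.05, and DESeq2 called 0. Without LV 8 h library 3 edgeR called 76 genes up and 286 down there, as against 2 up and 3 down with all libraries. With the replicate block Myh7 was called, at 0.85 (edgeR adjusted p = 0.00143), as 1 of 10 members beside 8.78% of tested genes. Its adjusted p ranged from 0.000308 to 0.871 over the 20 alternative settings at 8 h.

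The distance between the ventricles in Myh7 was larger at 0 h than at 8 h in CPM. The change from 0 h to 8 h in LV minus that in RV was -0.70 on the log2 scale (SE 0.3996) and did not pass the test. Its size was smaller without LV 0 h library 1, at -0.34, and with length offsets, at -0.37 in edgeR and -0.41 in DESeq2, and without LV 0 h library 3 it was -0.99. By edgeR 0 of 10 members were called for this difference, with 0% of tested genes called, 0 members at an unadjusted p under 0.05 and 0 by DESeq2. With the replicate block it was -0.63 (edgeR adjusted p = 0.0686), and Myh7 was the 1 member of 10 called, beside 5.71% of tested genes. That adjusted p ranged from 0.02502 to 1.000 over 19 alternative settings. Leaving out a pair of LV and RV libraries of 1 number ended the block's call in 5 cases: at 0 h number 1 (edgeR adjusted p = 0.246) and number 2 (0.195), at 4 h number 1 (0.103), and at 8 h number 1 (0.147) and number 3 (0.107). For the change to 4 h, edgeR called 0 of 10 members with 0% of tested genes, 0 members had an unadjusted p under 0.05, and DESeq2 called 0. With the block 0 of 10 were called and 0.305% of tested genes.

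Within a ventricle edgeR did not call Myh7 between any storage times on all libraries. DESeq2 with length offsets called it in LV at 8 h against 4 h and in RV at 8 h against 0 h, at 0.79 in RV (adjusted p = 0.0625). For LV at 8 h against 4 h its value was 1.07 by that setting (adjusted p = 0.0278) and 0.41 by edgeR on counts (adjusted p = 0.714). With length offsets edgeR gave 1.07 (adjusted p = 0.528) for the same contrast. Its log2 fold change at 8 h against 0 h was 0.53 in RV (SE 0.2203, edgeR adjusted p = 0.137) and -0.17 in LV (SE 0.302). The RV value passed the test without RV 0 h library 1, at 0.72 (edgeR adjusted p = 0.0993), and without RV 8 h library 2, at 0.68 (0.0534). Over the 13 alternative settings of the RV contrast the adjusted p of Myh7 ranged from 0.0625 to 0.269. All RV 8 h libraries but library 2 lay above the RV 0 h libraries. In LV the sign turned with length offsets, to 0.37 in edgeR, and without LV 0 h library 1, to 0.18.

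Myh7 remained a trace beside Myh6 in every library. As percentages of the summed TPM of both genes, Myh7 took in LV 0.377, 0.329 and 0.1795 at 0 h, 0.142, 0.241 and 0.175 at 4 h and 0.3900, 0.381 and 0.273 at 8 h. Its RV percentages were 0.108, 0.103 and 0.0868 at 0 h, 0.0797, 0.149 and 0.0981 at 4 h and 0.181, 0.112 and 0.213 at 8 h. By TPM the LV and RV libraries did not overlap at 0 h or at 8 h, and at 4 h RV library 2 lay above LV library 1. By counts they did not overlap at 0 h or at 4 h. At 8 h by counts, RV library 3 (0.465%) lay above LV libraries 2 (0.426%) and 3 (0.445%).

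The heavy chains are so alike in coding sequence that part of their reads fit both. Of the 6200 stretches of 31 bases in Myh7-204, 1966 (31.7%) also occur in transcripts of Myh6, and the same 1966 are 32.3% of those in Myh6-201. In the other 8 members, between 0 and 4.31% of such stretches of the longest basic coding transcript occur in any other gene. The sequence below is the longest coding run that both genes share base for base, shown because a read wholly within it fits either gene. It has 245 bases. In Myh6 it lies in exons 30 (14:54948612-54948725) and 31 (14:54948327-54948457) of Myh6-201, and in Myh7 in exons 32 (14:54975234-54975347) and 33 (14:54974947-54975077) of Myh7-204, all on the minus strand of GRCm38.
Myh6 and Myh7: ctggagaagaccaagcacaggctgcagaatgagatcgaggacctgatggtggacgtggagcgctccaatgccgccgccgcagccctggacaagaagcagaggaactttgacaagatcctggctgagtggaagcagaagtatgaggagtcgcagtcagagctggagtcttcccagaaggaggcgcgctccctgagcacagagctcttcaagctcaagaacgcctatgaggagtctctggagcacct

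By edgeR on all libraries the remaining thick filament members were not called in any comparison. Mybpc3 encodes cardiac myosin-binding protein C, which holds myosin heads near the filament backbone. It counted 4146, 3389.8 and 3207 CPM at 0 h, 3623, 3079 and 2972 CPM at 4 h and 2969, 2982 and 1828 CPM at 8 h in LV. RV libraries held 3037, 2371 and 2165 CPM at 0 h, 2967, 2306 and 1726 CPM at 4 h and 2483, 2242 and 865 CPM at 8 h. The LV 8 h libraries lay below all LV 0 h libraries, by little for libraries 1 and 2, and in RV the groups overlapped with library 3 of 8 h far below. The log2 fold change at 8 h against 0 h was -0.46 in LV (SE 0.198, edgeR adjusted p = 0.201, lower in 3 of 3 libraries) and -0.44 in RV (SE 0.363), neither of them called. The LV value of Mybpc3 was -0.28 without LV 8 h library 3. Its RV value was -0.090 without RV 8 h library 3, -0.28 without RV 0 h library 1 and -0.68 without RV 8 h library 1. Between the ventricles at 8 h Mybpc3 gave 0.48 (SE 0.319), and 0.58 with the block (edgeR adjusted p = 0.0183), just under the fold threshold. The value without the block ranged from 0.14 to 0.74 when 1 library was left out (edgeR adjusted p up to 0.925). Over the 20 alternative settings of this contrast the adjusted p ranged from 0.0183 to 0.907. Without 1 pair of same-numbered LV and RV libraries the block called Mybpc3 in 6 of 9 fits, with the largest value 0.75 without number 1 of 8 h (edgeR adjusted p = 0.0269). Without number 3 of 8 h it fell to 0.34 (edgeR adjusted p = 0.0342), under the fold threshold.

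The light chains steady the lever arm of the myosin head, Myl2 as the regulatory and Myl3 as the essential chain. Myl2 ranged from 4106 to 5671 CPM in LV and from 3570.2 to 5121 CPM in RV. Myl3 ranged from 3359 to 4529 CPM in LV and from 2507 to 4230.3 CPM in RV. At 8 h Myl3 counted 3954 ± 191 CPM in LV and 2992 ± 510.4 CPM in RV (mean ± SD, n = 3), and all LV libraries were above all RV libraries. The log2 fold change of Myl3 between the ventricles at 8 h was 0.40 (SE 0.155), which did not pass the test. With the block it was 0.41 (edgeR adjusted p = 0.0187), under the fold threshold. In that block fit 6 of 10 members had an adjusted p below 0.1, beside 4829 of 15093 tested genes. Only 1 of the 10 members was called, as the others lay under the fold threshold or above the adjusted p.

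Of the thin filament, Actc1 encodes cardiac alpha actin, the filament itself. Its counts in LV were 8646, 6268 and 7318 CPM at 0 h, 7997, 7166 and 7617 CPM at 4 h and 8315, 6712 and 4616 CPM at 8 h. Its counts in RV were 7068, 5101 and 6731 CPM at 0 h, 8332, 6462 and 6062 CPM at 4 h and 7614, 5806 and 2017 CPM at 8 h. Within each ventricle the groups overlapped, and library 3 was the lowest library at 8 h in both. The log2 fold change at 8 h against 0 h was -0.18 in LV (SE 0.205) and 0.011 without LV 8 h library 3. In RV it was -0.30 (SE 0.397) and 0.10 without RV 8 h library 3, so the sign turned in each ventricle and no value passed the test.

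Tnnt2, which ties troponin to tropomyosin, counted 6044 ± 1015 CPM at 0 h and 5309 ± 627 CPM at 8 h in LV (mean ± SD, n = 3). In RV it counted 6698 ± 1014 CPM at 0 h and 5161 ± 723 CPM at 8 h. Its log2 fold change was -0.18 in LV and -0.37 in RV (SE 0.162 and 0.207), and neither passed the test. Tnni3, the troponin that blocks contraction at low calcium, ranged from 2338 to 3706 CPM over all libraries. Tpm1, the main tropomyosin of the heart, ranged from 4070.1 to 7239 CPM. Neither was called in any comparison under edgeR.

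Ttn encodes titin, the spring and ruler of the sarcomere. Ttn counted 3683, 4051 and 3441 CPM at 0 h, 3637, 4314 and 3520.4 CPM at 4 h and 2904, 3981 and 2025 CPM at 8 h in LV. Ttn in RV counted 2988, 3579.8 and 2603 CPM at 0 h, 3001, 3938 and 2919 CPM at 4 h and 2571, 3464 and 1525 CPM at 8 h. The groups overlapped in both ventricles, library 2 was the highest of its group throughout, and library 3 of 8 h was the lowest of its ventricle. The log2 fold change at 8 h against 0 h was -0.32 in LV (SE 0.218) and -0.27 in RV (SE 0.289), neither of which passed the test. With length offsets the sign turned in RV, to 0.28 in edgeR and 0.31 in DESeq2, and the LV value was -0.024 in edgeR. By counts Ttn in RV was -0.15 without RV 0 h library 2, -0.57 without RV 8 h library 2 and -0.012 without RV 8 h library 3. In LV it was -0.57 without LV 8 h library 2 and -0.12 without LV 8 h library 3.

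**Figure D3:**
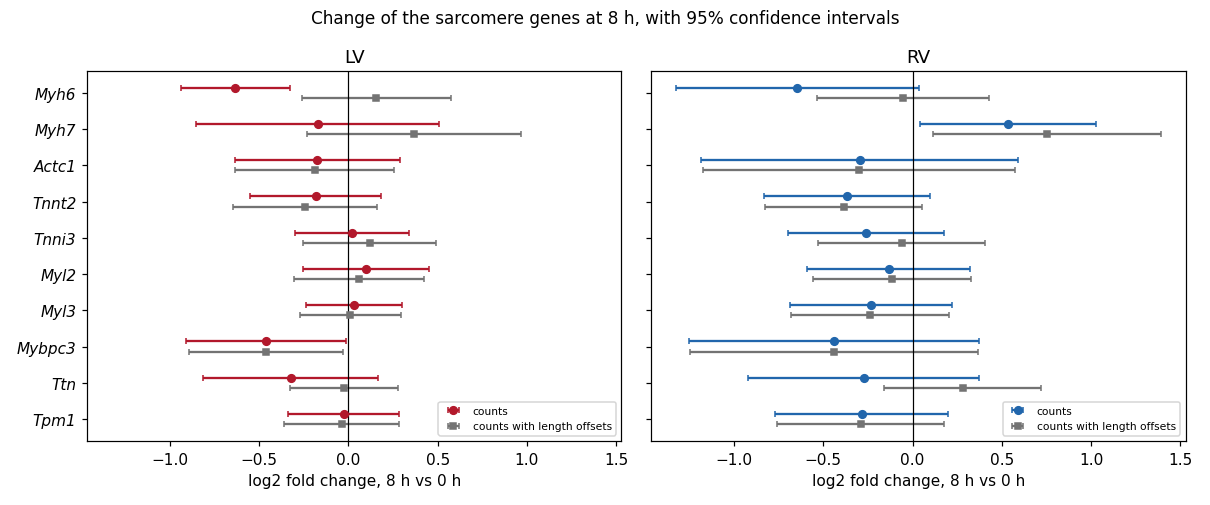
Log2 fold change of each of the 10 genes at 8 h against 0 h in LV and in RV, from 3 libraries a group, with bars for 95% confidence intervals. Circles are fits to estimated counts and squares the same fits with transcript length offsets. In LV the intervals of Myh6 and Mybpc3 by counts lie wholly below 0, that of Myh6 spans 0 with offsets, and in RV the interval of Myh7 by counts lies wholly above 0 although its adjusted p did not pass.

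By counts most members were below 0 at 8 h, which was not tested as a family. In LV at 4 h against 0 h edgeR called 0 of 10 members, beside 2.79% of all tested genes, 0 members had an unadjusted p under 0.05, and DESeq2 called 0. Their median log2 fold change was 0.030, and that of all tested genes -0.0044. In LV at 8 h against 0 h, 7 of 10 members were below 0, beside 51.7% of all tested genes. The member median was -0.17, against -0.017 over all genes. With length offsets in edgeR 5 of 10 were below 0, beside 50.4% of all tested genes. The member median was then -0.0067, and by counts without LV 0 h library 1 it was 0.0060. In LV at 8 h against 4 h edgeR called 0 of 10 members and 0% of genes, 1 member had an unadjusted p under 0.05, and DESeq2 called 0 members. Of all 14564 genes tested there, 1180 had an unadjusted p under 0.05 and DESeq2 called 8 up and 61 down. The libraries of each storage time take part in more than 1 of these contrasts, so the contrasts are not independent.

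In RV at 4 h against 0 h edgeR called 0 of 10 members, beside 10.1% of all tested genes, or 13.9% with a block for the number, which also called 0 members. Between storage times the hearts differ, so the number there is at most a batch and not a heart. At an unadjusted p under 0.05 there were 0 members, and DESeq2 called 0. In RV at 8 h against 0 h edgeR called 0 of 10 members, beside 18.2% of all tested genes, or 24.3% with the block, which also called 0 members. There 1 member had an unadjusted p under 0.05, and DESeq2 called 0. The members' median log2 fold change was -0.28, and the median of all genes -0.072. Below 0 were 9 of 10 members, beside 55.0% of all tested genes. That member median ranged from -0.40 to -0.15 without 1 library, and from -0.30 to -0.12 over 11 alternative settings. In RV at 8 h against 4 h edgeR called 0 of 10 members and 0% of genes, 0 members had an unadjusted p under 0.05, and DESeq2 called 0 members. Of all 14622 genes tested there, 961 had an unadjusted p under 0.05 and DESeq2 called 33 up and 16 down. Between the ventricles the median over members was 0.10 at 0 h, 0.080 at 4 h and 0.27 at 8 h, and over all genes it was -0.0081, -0.00083 and 0.0064. When 1 library was left out, the member median ranged from -0.0047 to 0.18 at 0 h. It ranged from -7.0e-05 to 0.12 at 4 h and from 0.083 to 0.40 at 8 h.

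The rest of the sarcomere was followed through a list of 78 genes, of which 77 could be tested in LV and 78 in RV. After 8 h edgeR called 8 of them against 0 h in LV (3 up, 5 down), beside 6.72% of all tested genes, and 7 in RV (5 up, 2 down), beside 18.2%. After 4 h it called 3 in LV (2 up, 1 down), beside 2.79%, and 5 in RV, all up, beside 10.1%. By sublist after 8 h, the 11 genes of the thick filament and M-band had 2 calls in LV and 1 in RV, all down, and the 26 of the Z-disc had 1 call up in each. The 15 of the thin filament had 2 up and 1 down in LV, with 2 up in RV. The 13 of myosin folding, assembly and turnover had 1 down in LV and 1 up in RV, and the 13 transcription factors 1 down in LV, with 1 up and 1 down in RV. At 8 h against 4 h edgeR called 0 of the listed genes in either ventricle, and DESeq2 called 6 in LV and 0 in RV. Of all tested genes, DESeq2 called 8 up and 61 down of 14564 in LV, and 33 up and 16 down of 14622 in RV. Over the 6 contrasts of storage times 13 genes were called at least once, and the 12 with the largest change after 8 h are named below.

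The cytoskeletal tropomyosins rose while the cardiac Tpm1 did not pass the test. Tpm3, a tropomyosin of slow muscle and of the cytoskeleton, counted 93.7, 65.2 and 67.9 CPM at 0 h, 174, 92.04 and 128 CPM at 4 h and 147, 121 and 226 CPM at 8 h in LV. The RV libraries held 81.2, 54.7 and 72.8 CPM at 0 h, 213, 131 and 137 CPM at 4 h and 289.8, 179.7 and 345 CPM at 8 h. In both ventricles all 8 h libraries lay above all 0 h libraries. Tpm3 rose at 8 h by 1.13 in LV (SE 0.2903, edgeR adjusted p = 0.0689) and by 1.98 in RV (SE 0.306, edgeR adjusted p = 0.00495) on the log2 scale. Tpm4, a tropomyosin of the cytoskeleton, rose by 0.77 in LV (SE 0.165, edgeR adjusted p = 0.0416) and by 1.17 in RV (SE 0.284, edgeR adjusted p = 0.0278). All 8 h libraries of Tpm4 lay above all its 0 h libraries in both ventricles. In fits without a library the calls held in 5 of 9 for Tpm3 and 6 of 9 for Tpm4 in LV, and in 9 of 9 and 8 of 9 in RV. Cells other than cardiomyocytes also make both genes.

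Lmod2, which sets the length of thin filaments, moved the other way. It counted 1024, 903 and 722 CPM at 0 h, 522, 577 and 582 CPM at 4 h and 369, 448 and 355 CPM at 8 h in LV. RV held 835, 762 and 604 CPM at 0 h, 579, 637 and 754 CPM at 4 h and 490.1, 578 and 217 CPM at 8 h. In LV no 4 h or 8 h library reached the lowest 0 h library, and in RV the 8 h libraries lay below all 0 h libraries. At 8 h Lmod2 fell in LV by 1.17 on the log2 scale (SE 0.155, edgeR adjusted p = 0.00904). That call held in 9 of 9 fits without a library, and Lmod2 was also called lower in LV at 4 h. In RV the value at 8 h was -0.78 (SE 0.318, edgeR adjusted p = 0.135), which did not pass the test. With a block for the number, here a batch and not a pair from 1 heart, it was -0.82 (edgeR adjusted p = 0.0898) and passed. Over the 12 alternative settings of the RV contrast its adjusted p ranged from 0.0512 to 0.201. When 1 library was left out, the RV value ranged from -1.06 to -0.45 (edgeR adjusted p 0.0514 to 0.281).

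Of the M-band and thick filament genes in the list, Myom2, a myomesin that links myosin filaments at the M-band, fell by 0.81 in LV (edgeR adjusted p = 0.0993) and fell by 0.89 in RV (edgeR adjusted p = 0.0964) at 8 h on the log2 scale. All its 8 h libraries lay below the 0 h libraries in LV, and RV 8 h library 2 overlapped them in RV. In each ventricle its call held in 1 of the 9 fits without a library. Myh7b, a myosin heavy chain related to Myh7, fell by 0.94 in LV (edgeR adjusted p = 0.08998), a call that held in 2 of 9 such fits. Trim63, a ubiquitin ligase of sarcomere turnover, fell by 0.79 in LV (edgeR adjusted p = 0.0788), and this held in 3 of 9. Tbx20, a cardiac transcription factor, fell by 0.61 in LV (edgeR adjusted p = 0.05302) and by 0.68 in RV (edgeR adjusted p = 0.0871). All 8 h libraries lay below all 0 h libraries for Myh7b and Trim63 in LV and for Tbx20 in both ventricles. The Tbx20 call held in 4 of 9 such fits in LV and in 1 of 9 in RV.

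Some genes of the Z-disc and of thin filament upkeep were called higher at 4 h. Klhl40, which stabilises thin filament proteins, counted 37.01, 22.1 and 17.6 CPM at 0 h, 103, 58.99 and 47.9 CPM at 4 h and 27.8, 18.2 and 25.9 CPM at 8 h in LV. RV values were 20.2, 16.5 and 15.5 CPM at 0 h, 131, 89.9 and 54.7 CPM at 4 h and 55.99, 24.6 and 27.9 CPM at 8 h. In both ventricles all 4 h libraries lay above all 0 h libraries, and the 8 h libraries of LV fell back into the 0 h range. At 4 h Klhl40 was called higher in LV, at 1.45 (edgeR adjusted p = 0.0878), and in RV, at 2.41 (edgeR adjusted p = 0.0101). At 8 h it was called in RV, at 1.06 (edgeR adjusted p = 0.0848), a call that held in 3 of 9 fits without a library. Xirp1, an actin-binding protein of intercalated discs and repairing myofibrils, was called higher at 4 h in RV, at 2.06 (edgeR adjusted p = 0.0224). Flnc, the muscle filamin, was called higher there at 1.36 (edgeR adjusted p = 0.0704). In LV at 4 h neither passed the test (edgeR adjusted p = 0.311 for Xirp1 and 0.307 for Flnc). Foxo1, a transcription factor active in muscle wasting, rose in RV at 8 h by 0.81 (edgeR adjusted p = 0.0153), with all 8 h libraries above all 0 h libraries, and held in 9 of 9. At 4 h in RV, Foxo1 (0.65, edgeR adjusted p = 0.0529) and Tpm3 (1.22, edgeR adjusted p = 0.0466) were also called higher. Ankrd2, a stretch-responsive ankyrin repeat protein, was called higher at 8 h in both ventricles from at most 1.202 CPM, a level at which few reads decide the value.

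Between the ventricles and for the differences of change, edgeR called 0 of the 78 listed genes at each storage time. DESeq2 called 2 at 0 h and 3 at 8 h. Of all 15093 genes tested, DESeq2 called 22 up and 40 down at 0 h, and 38 up and 150 down at 8 h. With the replicate block edgeR called 8 at 0 h (7 up in LV, 1 down), 4 at 4 h (all up in LV) and 14 at 8 h (11 up in LV, 3 down), where 1.85, 1.93 and 8.78% of all tested genes were called. For the change to 8 h the block gave 5 calls, 1 up and 4 down, beside 5.71% of all tested genes.

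Markers of the tissue were read in the same libraries. Of the cardiomyocyte markers outside the sarcomere, 15 of 15 were tested and their summed level in LV was 38079, 36867 and 33119.6 CPM at 0 h, 36734, 37089 and 38509 CPM at 4 h and 28706, 33778 and 26151 CPM at 8 h. The RV sum was 37949, 37972 and 30054 CPM at 0 h, 38397, 38216 and 35353 CPM at 4 h and 27852, 34933 and 15723 CPM at 8 h. Atp2a2, the calcium pump of the sarcoplasmic reticulum, was the most abundant, and RV 8 h library 3 had less than any other library, as it had for the members. At 8 h against 0 h, 12 of 15 were below 0 in LV and 15 of 15 in RV, beside 51.7 and 55.0% of all tested genes. Rbm20, a splicing factor of titin, was called lower by edgeR in each ventricle, as 1 of 15, a gene named after its values were seen. No cardiomyocyte marker was at 0 in every library. Their part in the members' result was not tested.

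Calls among markers of other cells after 8 h stand beside 6.72% of all tested genes called in LV and 18.2% in RV. Of all tested genes, 51.7% were below 0 there in LV and 55.0% in RV. The 10 fibroblast markers, with Gsn the most abundant, summed to 1869, 2099 and 2042 CPM in LV at 0 h and 3039, 2178 and 2655 CPM at 8 h. In RV they summed to 2593, 2686 and 2612 CPM at 0 h and 4411, 2631 and 3406 CPM at 8 h, and 9 of 10 were above 0 at 8 h in each ventricle, 1 of them called in LV and 2 in RV. Of 8 neutrophil markers, with Csf3r the most abundant, 6 could be tested in LV and 4 in RV, and all tested ones were above 0 at 8 h, 3 called in LV and 2 in RV. Their sum in LV was 3.08, 2.73 and 2.92 CPM at 0 h, 5.25, 7.52 and 9.34 CPM at 4 h and 22.02, 11.8 and 15.6 CPM at 8 h. Their RV sum was 4.999, 3.12 and 4.67 CPM at 0 h, 7.45, 9.102 and 12.1 CPM at 4 h and 23.3, 15.1 and 22.3 CPM at 8 h. The 7 erythroid markers, with Hbb-bs the most abundant, summed to 2.404 to 196 CPM, highest in LV 8 h library 1, and 2 of 4 tested were called up in LV. The 8 atrial markers, led by Nppa, summed to 88.4 to 887 CPM, highest in RV 8 h library 1, with 0 calls by edgeR. Whether these cells took part in the members' result was not tested.

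The other lists were spread as follows over the 18 libraries. The 10 endothelial markers, led by Cdh5, summed to 690.3 to 1502 CPM, and the 10 of smooth muscle and pericytes, led by Rgs5, to 1027 to 1529 CPM. The 10 of macrophages and monocytes, led by Lyz2, summed to 220.1 to 651 CPM. The 7 of the conduction system, led by Tbx3, summed to 27.2 to 63.3 CPM, and the 5 mesothelial ones, led by Wt1, to 12.6 to 59.1 CPM. Skeletal muscle (10 genes, led by Tnni2) stayed at or under 4.15 CPM and adipocytes (6 genes, led by Cfd) at or under 30.6 CPM. After 8 h edgeR called 1 endothelial gene and 1 of smooth muscle and pericytes down in RV, 3 of macrophages and monocytes up and 1 down in RV, and 1 of the conduction system up in LV and 1 down in RV. It called 0 mesothelial, skeletal muscle and adipocyte genes. No listed gene was at 0 in every library, and the part of these lists in the members' result was not tested.

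The labelled ventricle could not be read from Hand1, a factor known from LV, which was at 0 CPM in 14 of 18 libraries. Tbx5, another such factor, had a level at 0 h of 21.4 ± 4.48 CPM for LV and 25.5 ± 5.27 CPM for RV (mean ± SD, n = 3), so neither marks the ventricles here. The Y-linked gene Ddx3y stood at 1.47 to 2.44 CPM in library 2 of 0 h, library 3 of 4 h and library 3 of 8 h of both ventricles. In all other libraries it stood at 62.1 to 115 CPM. Each group thus held 1 library with a low level, and the low libraries of LV and RV had the same number. Mice of both sexes were used, by the paper's methods. Fits without library 3 of 8 h also left out the low library of that group. The part of that library and of a low Ddx3y level cannot be told apart there.

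The genes most like the members in their pattern over the 18 libraries were sought among 5715 genes, by Pearson correlation of log2 CPM with the members' mean. They were Smyd2 (r = 0.946), a methyltransferase of muscle, Casq2 (0.945), the calcium store of the sarcoplasmic reticulum, Fhl2 (0.942), Cfl2 (0.934), the actin-severing cofilin of muscle, and Ormdl3 (0.933). Among those most like Myh7 alone were Clic5 (0.819), Nppb (0.791), encoding the B-type natriuretic peptide, Fam213b (0.783) and Rras2 (0.769). These correlations are descriptions, since the libraries share ventricles, storage times and mitochondrial share.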

How the data were processed

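The 18 libraries were made from total RNA of LV and RV with mRNA selected (by the paper's methods), 3 per ventricle and storage time. For each transcript the authors deposited estimated counts (est_counts), which they made with kallisto on GRCm38 transcripts, dividing reads that fit several transcripts. The authors deposited TPM (tpm) from the same kallisto runs, scaled by effective transcript length within each library. Counts were summed to 34989 genes with GENCODE M21, and 1259 of 111462 transcripts without a gene there (at most 0.383% of counts) were left out. Sums were rounded to whole numbers for the tests. Genes passing filterByExpr were tested with edgeR 4.0.16 (quasi-likelihood, TMM) in R 4.3.3: 14564 in LV, 14622 in RV and 15093 over both. Changes of storage time were fitted on the 9 libraries of a ventricle, differences between ventricles on all 18. Calls needed a Benjamini-Hochberg adjusted p below 0.1 and a fold change above 1.5. Tables were made with Python 3.11.15 and pandas 2.3.3.

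Same-numbered libraries were checked for pairing by the correlation of their deviations from group means over 15093 genes. The lowest same-number correlation was 0.249, 0.370 and 0.468 between LV and RV at 0, 4 and 8 h, 0.106 and 0.131 in RV at 4 h and 8 h against 0 h, and 0.290 and 0.279 at 8 h against 4 h in LV and RV. Between 0 h and the later LV libraries it was 0.0354 and -0.0122, so numbers were not read as pairs there.

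All 10 members are named. From the wider list of 78 sarcomere genes (thick filament and M-band, thin filament, Z-disc, folding and turnover, transcription factors), the 12 with the largest change after 8 h among those called at any storage time are named. Each marker list is represented by its most abundant gene, and similar genes needed a mean of at least 20.0 CPM. The members and lists were chosen with earlier results of these data known. Alternatives were RLE size factors, no filter, DESeq2 1.42.0 with and without length offsets, length offsets in edgeR, other thresholds, no mitochondrial genes, a replicate block (pairs of LV and RV, or the number as a batch between storage times), a covariate of Y-linked genes, other sets of libraries and leaving out each library. Counting basic transcripts alone, and the block without 8 h library 3, were added after seeing the data. The code was tested on simulated data.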

Additional observations from a re-analysis of the deposited data

Results flagged for a closer look

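With the replicate block, the change from 0 h to 8 h differed between LV and RV for 6 genes, which flagged them as a difference between groups. In this contrast the block called 5.71% of all tested genes, against 1 of 10 members and 5 of the 78 genes of the wider list. Leaving out a pair of same-numbered libraries ended the block's call of Myh7 in 5 cases (edgeR adjusted p 0.103 to 0.246). On the log2 scale, LV minus RV, the values were -0.63 for Myh7, -0.84 for Tpm3, -0.75 for Flnc, -1.04 for Klhl40, -1.52 for Xirp1 and 0.83 for Hand2. With length offsets and no block the Myh7 value was -0.37 in edgeR, and by counts without LV 0 h library 1 it was -0.34. Without the block edgeR called 0 of them, and DESeq2 called 0 of the 10 members. Hand2 encodes a cardiac transcription factor and was named after its values were seen.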

How the results depend on the processing

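Of 1977 recomputed values, 179 were calls lost or counts of calls that fell by over 1.5 times or to 0, and 167 were calls gained or counts that rose by over 1.5 times or from 0. Another 11 untested values moved by more than the spread between libraries, 13 reversed in sign and 1607 did none of these. The cause was not tested for any of them.

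Members called in LV at 8 h against 0 h were 0 with length offsets in edgeR or DESeq2, in 1 model of all 18 libraries, and with the block without 8 h library 3, and 0 to 1 when 1 library was left out. In LV at 8 h against 4 h DESeq2 with length offsets called 1, Myh7. In RV at 8 h against 0 h it called 1, again Myh7, and 1 model of all 18 libraries called 1, Myh6, and leaving out a library gave 0 to 2. The counts of all genes called also moved when 1 library was left out. At 4 h against 0 h they ranged from 15 to 835 in LV (407 with all) and from 321 to 2066 in RV (1474). In RV at 8 h against 0 h they ranged from 1263 to 4643 (2665), and between the ventricles at 0 h from 0 to 38 (24).

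Between LV and RV at 0 h the members called were 0 at an adjusted p below 0.05, with edgeR length offsets and with the 6 libraries of that time, and 0 to 1 without a library. At 4 h the block called 1, also without each of the 9 pairs of same-numbered libraries. At 8 h the block and DESeq2 with length offsets called 1, and the block called 1 without pair 1 or 2 of 0 h or pair 3 of 8 h, 2 without pair 3 of 0 h or any pair of 4 h, and 3 without pair 1 or 2 of 8 h. For the change to 8 h the block called 1, also without pair 3 of 0 h, pairs 2 and 3 of 4 h or pair 2 of 8 h. The members' median for that change was -0.087 to 0.29 without a library.

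Signs reversed for Myh6 in LV at 8 h against 0 h (0.16 and 0.16 with length offsets in edgeR and DESeq2), Myh7 in LV (0.37 and 0.37) and Ttn in RV (0.28 and 0.31). With the block without 8 h library 3, Actc1 gave 0.0095 in LV and 0.078 in RV. Without 1 library Actc1 ranged from -0.39 to 0.011 in LV and -0.67 to 0.096 in RV, Myh7 in LV from -0.46 to 0.18 and Klhl40 in LV from -0.30 to 0.27.

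The wider list had 1 call (block) and 6 (DESeq2) in LV at 8 h against 4 h, 10 and 12 (block) in RV at 4 h and 8 h, 8 (block) and 2 (DESeq2) between ventricles at 0 h, 4 (block) at 4 h, 14 (block) and 3 (DESeq2) at 8 h, and 5 (block) for the change to 8 h. From counts in place of TPM the Myh7 share was 0.253% in LV at 4 h, 0.486% in LV at 8 h, 0.114% in RV at 0 h and 0.303% in RV at 8 h. Without mitochondrial genes the members took 10.5, 9.58 and 8.29% of counts in LV at 0, 4 and 8 h, and 10.7, 9.46 and 7.30% in RV.

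In LV the numbers did not pair between 0 h and later times, where not every library correlated best with its own number. There the block moved the genes called from 349 up and 58 down to 562 and 100 at 4 h, and from 795 and 183 to 1179 and 361 at 8 h, with 0 and 1 members called as without it. The block changed no other call of a member than those named. With 3 libraries in a group, an omission leaves a pair, and the test pools the spread over groups. Libraries of 22552600.0 to 46236800.0 counts leave genes near 1 CPM, such as Ankrd2, resting on few reads.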
